A study of Mus musculus with 25 samples.

Results

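Brown and beige fat genes were measured in perigonadal white adipose tissue (pgWAT), the white fat depot next to the epididymis, of mice that lacked 1 or both isoforms of ChREBP. The genes were 10 members of the thermogenic programme, taken by their gene name on the array: Ucp1, Dio2, Ppargc1a, Ppargc1b, Prdm16, Cox7a1, Cox8b, Kcnk3, Otop1 and Ebf2. They were 10 of 26420 gene names in the deposited normalised table, with 13 of its 40561 probes. All 25 mice were male C57BL6/J animals that were fasted for 24 hours and then refed for 18 hours with chow and 20% glucose in the drinking water, and each gave 1 single-colour Agilent array. The ChREBPβ line gave 7 WT and 6 KO arrays and the total ChREBP line 7 WT and 5 KO arrays. ChREBPβ-deficient mice carried a CRISPR/Cas9 deletion of exon 1b of Mlxipl, the gene of ChREBP, and total ChREBP-KO mice were Mlxipl-null and lacked ChREBPα and ChREBPβ. Each line had its own WT group. Both deletions were carried by every tissue and not by fat alone, the ChREBPβ deletion was kept as 2 founder lines per strain that the labels do not tell apart, and the age of the mice is not given in the sources used here.

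Brown and beige adipocytes burn fuel to make heat. Noradrenaline from sympathetic nerves acts on β-adrenergic receptors, cAMP rises, lipids are released, and the uncoupling protein of the mitochondrial inner membrane, the product of Ucp1, lets protons return without ATP synthesis. The coactivators encoded by Ppargc1a and Ppargc1b drive mitochondrial genes, the transcriptional regulators encoded by Prdm16 and Ebf2 set brown and beige identity, and white depots such as pgWAT normally hold little of the programme. ChREBP is a glucose-responsive transcription factor that is active after refeeding, when lipogenic genes are high.

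The sequences below are those of the Otop1 probe whose result differed from that of its partner, of the Ucp1 probe, which lay near the detection limit, and of the dimmer Ppargc1a probe, whose result matched that of its partner, with the promoter stretch of the member that rose in total ChREBP-KO mice. Positions of probes come from the array's own annotation, on mm9, for which no exon annotation was used here. The Otop1 probe A_55_P2078138 lies at chr5:38694026-38694085, the Ucp1 probe A_51_P426353 at chr8:85821788-85821847 and the Ppargc1a probe A_55_P2745394 at chr5:51849419-51849478. All 13 probes matched a RefSeq accession of their gene, and none shared a run of 20 bases with a probe of another gene.
Otop1 A_55_P2078138: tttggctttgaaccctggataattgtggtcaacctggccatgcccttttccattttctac
Ucp1 A_51_P426353: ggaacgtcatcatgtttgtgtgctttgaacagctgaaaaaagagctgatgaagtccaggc
Ppargc1a A_55_P2745394: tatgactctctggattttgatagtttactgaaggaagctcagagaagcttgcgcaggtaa
Dio2 upstream: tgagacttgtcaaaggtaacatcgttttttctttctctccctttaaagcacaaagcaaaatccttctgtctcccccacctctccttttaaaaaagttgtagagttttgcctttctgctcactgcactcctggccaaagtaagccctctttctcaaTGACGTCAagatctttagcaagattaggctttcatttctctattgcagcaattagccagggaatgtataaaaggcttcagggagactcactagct
The Dio2 stretch is the 250 bases before its RefSeq start on GRCm38.p6, at chr12:90739039-90739288 on the minus strand, with the cAMP response element TGACGTCA in capitals. That element is the site at which the cAMP-regulated factor CREB binds. Promoter entries were matched for 7 of the 10 members. Kcnk3 and Ppargc1b, which fell in total ChREBP KO, and Ebf2 had no entry and were not searched. Among these 7 only the Dio2 stretch held TGACGTCA, which was in 1.55% of the 32851 promoters searched on both strands. The E-box CACGTG, the core of the element that ChREBP binds, was in 6.02% of these promoters and in 0 of the 7 member stretches. So few stretches cannot set the members apart from that share.

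White adipocyte genes were high on every array, with a mean over 10 genes between 16.25 and 16.67 on the log2 scale of normalised intensity, the scale used for all levels here. RNA of other tissues was also present. In the ChREBPβ line the mean over 9 liver genes ran from 13.11 to 16.36 in WT and from 11.67 to 15.82 in KO mice. It was lower in the total ChREBP line, from 8.51 to 13.79 in WT and from 8.39 to 9.33 in KO mice, and each of the 9 genes was well above background on at least 18 of 25 arrays. The mean over 4 genes of epididymis and vas deferens was above 9 on 5 arrays, with the highest value, 13.88, in total ChREBP WT replicate 2. The mean over 5 genes of sympathetic nerve ran from 5.85 to 7.24 in total ChREBP WT and from 5.49 to 5.97 in the other groups. Of the 3 probes of Mlxipl, A_55_P2119957 was between 14.07 and 14.29 in total ChREBP KO against 15.74 to 16.24 in total ChREBP WT, and between 14.02 and 14.64 in ChREBPβ KO against 14.72 to 15.46 in ChREBPβ WT. Probe A_55_P2728555 differed by -0.66 in total ChREBP KO (adjusted p = 0.00103 by limma) and by -0.47 in ChREBPβ KO (adjusted p = 0.255). Probe A_55_P2045158 did not fall, with differences of 0.08 (adjusted p = 0.695) and -0.06 (adjusted p = 0.896). A probe outside the deleted part does not check a genotype, and where these probes lie relative to the deletions was not determined here.

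**Figure D1:**
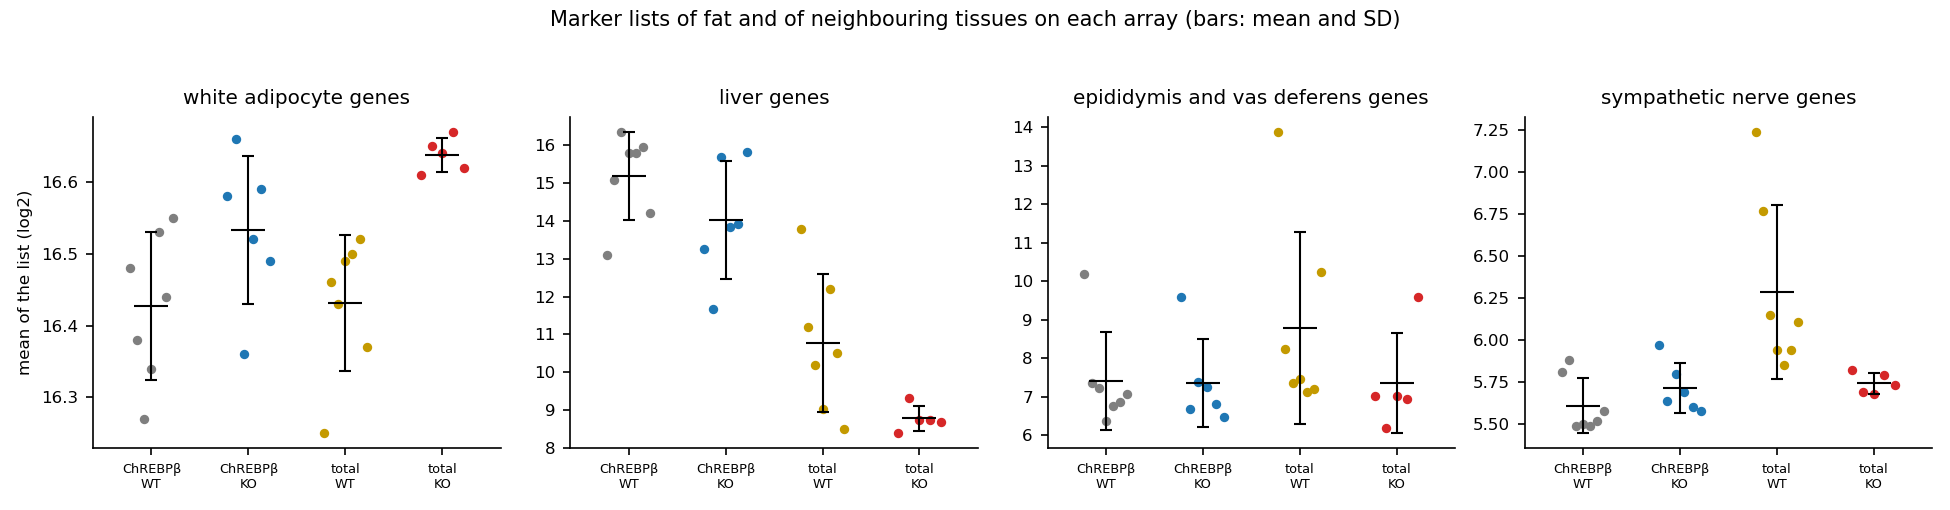
Mean log2 normalised intensity of 4 marker lists on each array (vertical axis) in the 4 groups (horizontal axis; total WT and total KO are the Mlxipl-null line); points are arrays and bars are the group mean and SD. Liver genes reached 16.36 in the ChREBPβ line and lay between 8.39 and 9.33 in total ChREBP KO, and total ChREBP WT replicate 2 held the highest epididymis and vas deferens value (13.88).

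The lack of both isoforms was addressed by total ChREBP KO against total ChREBP WT. Of the 10 genes, each taken by its brightest probe, Dio2 was higher and Kcnk3 and Ppargc1b were lower in total ChREBP KO, and 7 did not pass the test (limma, adjusted p under 0.05 after Benjamini-Hochberg adjustment over all probes). Of all probes 8.79% passed, 5.35% as higher and 3.44% as lower. The median difference of the members was -0.21 on the log2 scale, against 0.02 over all probes. White adipocyte genes moved with this comparison: the mean of their list was 16.61 to 16.67 on the KO arrays, all above the WT arrays at 16.25 to 16.52, and 3 of its 10 genes, Plin1 (0.43), Cidec (0.39) and Car3 (0.40), were higher. The part of white adipocyte genes in the differences below was not tested. Liver genes moved further, with a median difference of -1.96 over the list. Of these 9 genes 7 had an unadjusted p under 0.05 by limma, and 1 passed as higher and 1 as lower. The 4 epididymis and vas deferens genes had a median of -1.08, and none passed.

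**Figure D2:**
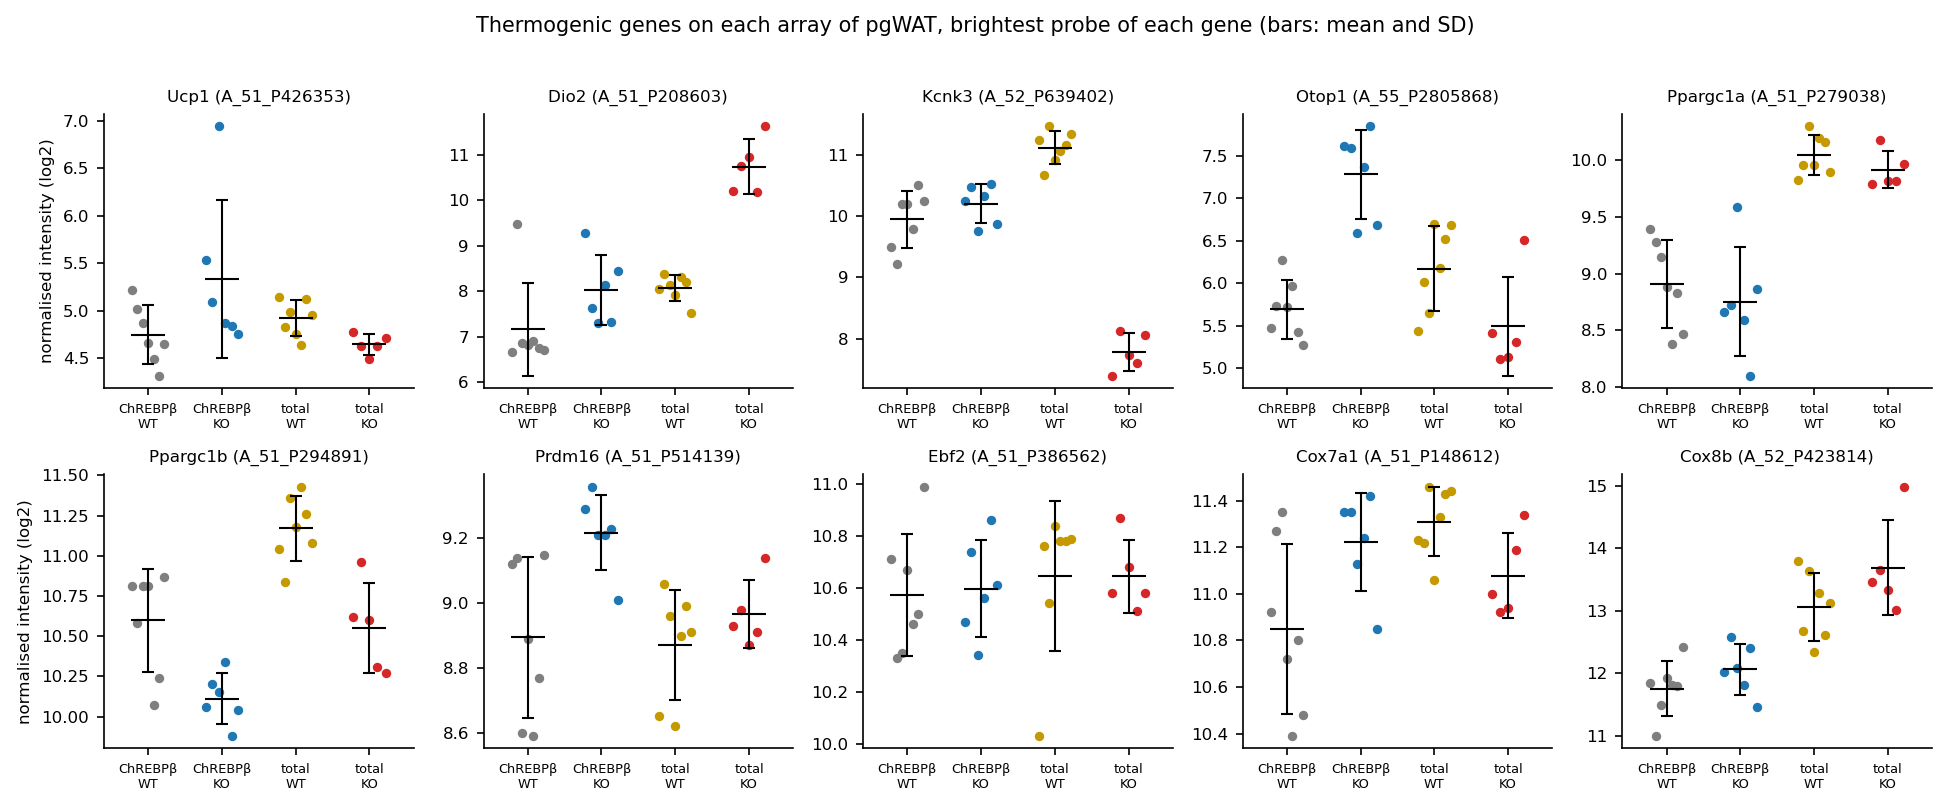
Log2 normalised intensity (vertical axis) of the brightest probe of each of the 10 genes on every array of the 4 groups (horizontal axis); points are arrays and bars are the group mean and SD, and each panel has its own scale. Total ChREBP KO stands below all other arrays for Kcnk3 (7.40 to 8.13) and above them for Dio2 (10.17 to 11.62), and ChREBPβ KO stands above ChREBPβ WT for Otop1 (6.59 to 7.85 against 5.27 to 6.28).

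Kcnk3 encodes a potassium leak channel that sets the membrane potential and is known to restrain the adrenergic response of brown adipocytes. In WT mice of this line its level was 10.66 at the lowest, 11.15 at the median and 11.46 at the highest, and the 5 total ChREBP KO arrays were at 7.40, 7.61, 7.73, 8.06 and 8.13. Every KO array was thus below every WT array, and below all 13 arrays of the ChREBPβ line, of which the lowest was 9.21. Groups did not overlap for 6.80% of all probes in this comparison. Kcnk3 fell by 3.31 (SE 0.20, 95% confidence interval -3.73 to -2.89, n = 5 and 7) on the log2 scale, a 9.93-fold lower level (limma, adjusted p = 3.08e-10). Within the 4 wash batches, each of which held all 4 groups, Kcnk3 differed by -3.32, -2.93, -3.05 and -3.88. These batches held 2, 1, 1 and 1 arrays of total ChREBP KO, and 2, 1, 1 and 2 of ChREBPβ KO. Each WT group had 2, 1, 2 and 2, so that values within a batch rest on 1 or 2 arrays a group. Its signal was well above background on all 25 arrays, with a median raw intensity of 2120 in the WT and 213 in the KO mice of this line. In tissue RNA, fewer cells of a type and less RNA per cell cannot be told apart.

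Dio2 encodes the deiodinase that turns thyroxine into the active thyroid hormone inside the cell and is a classical target of cAMP in brown fat. In total ChREBP WT its level was 7.53 at the lowest, 8.13 at the median and 8.39 at the highest. The 5 total ChREBP KO arrays were at 10.17, 10.20, 10.76, 10.94 and 11.62, all above every total ChREBP WT array and also above every array of the ChREBPβ line. Dio2 rose by 2.62 (SE 0.39, 95% confidence interval 1.81 to 3.43, n = 5 and 7), which was 6.15-fold (limma, adjusted p = 8.57e-05). Within the wash batches the Dio2 difference was 2.45, 2.55, 3.36 and 2.42.

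The highest Dio2 value, 11.62, was that of total ChREBP KO replicate 7, an array that also held the highest Cox8b (14.99) and Otop1 (6.51) of its group. Its epididymis and vas deferens mean was 9.59, against 6.18 to 7.02 on the other 4 arrays of total ChREBP KO. Without the 5 arrays with the highest mean of that list, the Dio2 difference was 2.38 (limma, adjusted p = 0.00171) and that of Kcnk3 was -3.22 (adjusted p = 4.84e-07). With the mean of the liver list as a covariate, the differences were 2.81 for Dio2 (adjusted p = 0.000273) and -3.37 for Kcnk3 (adjusted p = 6.88e-09).

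Ppargc1b, a coactivator of mitochondrial and lipogenic genes, was lower by a smaller amount. Its brighter probe, A_51_P294891, had a lowest, median and highest level of 10.84, 11.18 and 11.43 in WT mice, and was at 10.27, 10.31, 10.60, 10.62 and 10.96 in KO mice. The groups overlapped, since 4 of 5 KO arrays were below all WT arrays and 1 was not. Ppargc1b fell by 0.63 (SE 0.14, 95% confidence interval -0.93 to -0.34), a 1.55-fold lower level (limma, adjusted p = 0.00565), with within-batch differences of -0.63, -0.24, -1.07 and -0.44. The dimmer probe, A_65_P02810, differed by -0.56 (SE 0.20) and did not pass (adjusted p = 0.0990). Without the 5 arrays with the highest epididymis and vas deferens mean, the brighter probe differed by -0.55 and did not pass either (adjusted p = 0.0998), and the part of that tissue in the difference was not tested beyond this value.

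The other members did not pass in total ChREBP KO. Ucp1 was close to the detection limit of the array. Its median raw intensity was 26.0 to 30.2 in the 4 groups, and it was well above background on 3 of 7 WT and 6 of 6 KO arrays of the ChREBPβ line, and on 5 of 7 WT and 0 of 5 KO arrays of the total ChREBP line. The measured means in total ChREBP WT and KO were 4.92 and 4.65, and no KO array was well above background. With each KO array set to the higher of its own level and its dimmest detected probe, the WT mean was 1.20-fold higher. By limma on the measured levels the interval was -0.85 to 0.21 (adjusted p = 0.566), so that no minimum difference of Ucp1 was established.

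Both subunits of cytochrome c oxidase in the programme, the muscle and brown fat isoforms encoded by Cox7a1 and Cox8b, had intervals that reached or neared 0. Cox8b was at 12.35, 13.12 and 13.80 (lowest, median and highest) in WT mice of this line and at 13.01, 13.34, 13.46, 13.66 and 14.99 in total ChREBP KO, a difference of 0.67 (SE 0.30, adjusted p = 0.208 by limma). Within wash batches the Cox8b difference ran from -0.01 to 2.04, and without total ChREBP KO replicate 7 it was 0.31. Cox7a1 differed by -0.25 (SE 0.14, adjusted p = 0.347). Intervals included 0 for both Ppargc1a probes (differences -0.17 and -0.21), Prdm16 (0.09) and Ebf2 (0.01). The Ebf2 interval was -0.28 to 0.29, so a change of more than 0.29 in either direction lay outside it.

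**Figure D3:**
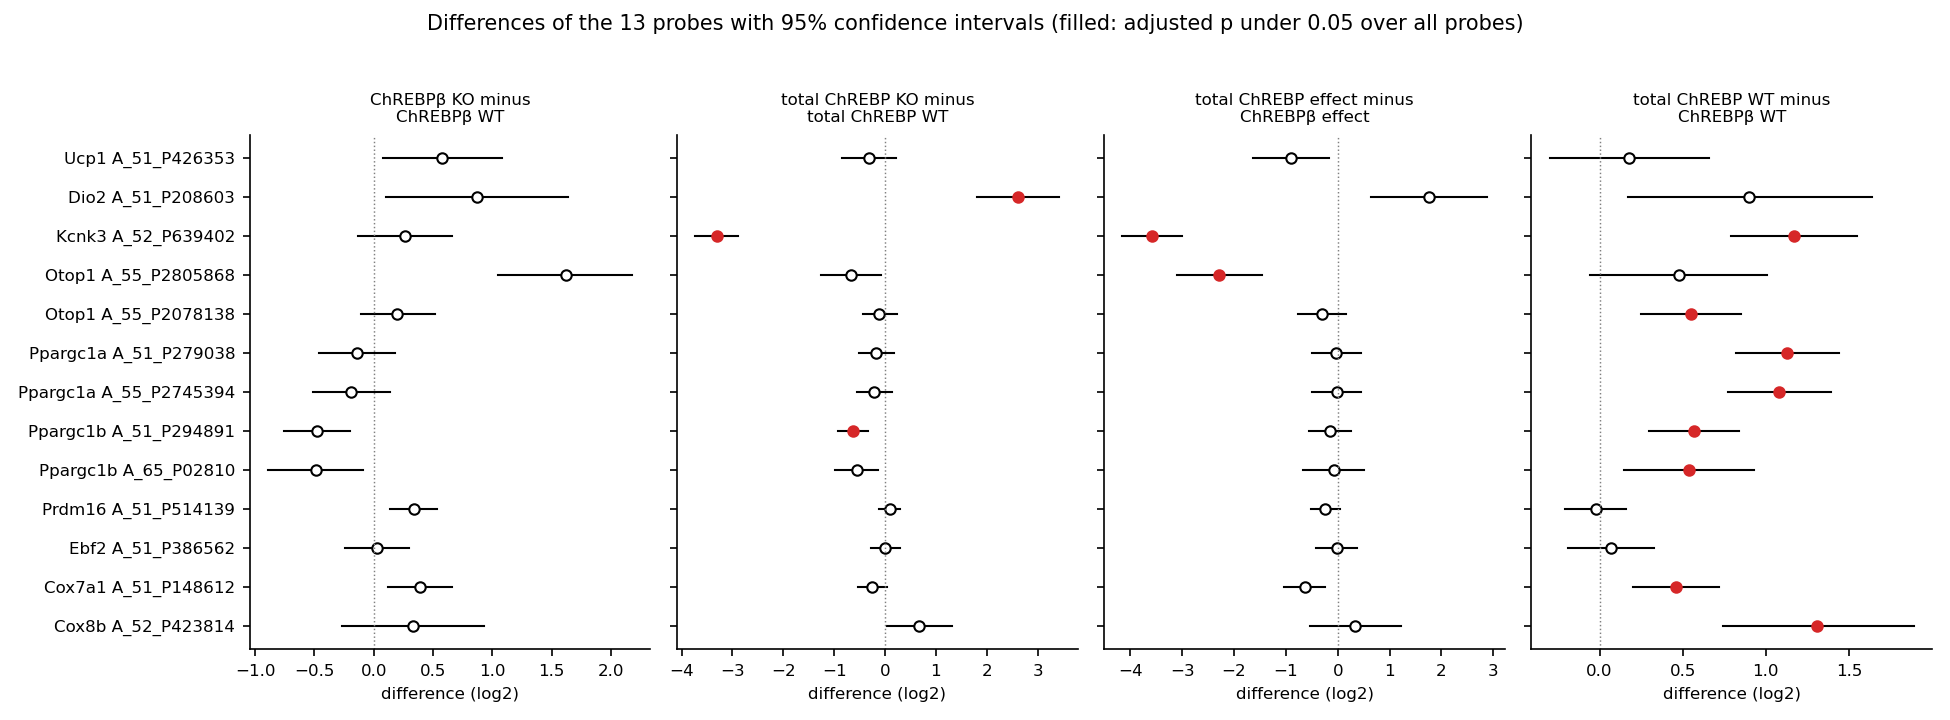
Difference on the log2 scale (horizontal axis) of the 13 probes (vertical axis) in the 4 comparisons; points are limma estimates, lines are 95% confidence intervals and filled points passed an adjusted p of 0.05 over all probes. No point is filled for ChREBPβ KO against ChREBPβ WT, while Kcnk3 (-3.31) and Dio2 (2.62) stand farthest from 0 for total ChREBP KO.

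The lack of ChREBPβ alone was addressed by ChREBPβ KO against ChREBPβ WT. None of the 10 genes passed (limma), and none of the 40561 probes did (0%), although 80 probes passed without ChREBPβ KO replicate 4. At an unadjusted p under 0.05 there were 6 of the 10 genes, where 9.02% of all probes were under that value. Otop1 was among these genes by probe A_55_P2805868, and its other probe had an unadjusted p of 0.195 by limma. The members' median difference was 0.34, with 8 genes above 0 and 2 below, against a median of 0.02 over all probes.

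Otop1, which encodes a proton channel of the plasma membrane, had 2 probes that did not give the same picture. With probe A_55_P2805868 (chr5:38695335-38695394, mm9) the lowest, median and highest levels were 5.27, 5.72 and 6.28 in ChREBPβ WT and 6.59, 7.48 and 7.85 in ChREBPβ KO. All 6 KO arrays were above all 7 WT arrays, a separation found for 0.0690% of all probes. The difference was 1.62 (SE 0.27, 95% confidence interval 1.05 to 2.18, 3.07-fold), with an unadjusted p of 6.8e-06 and an adjusted p of 0.0920 by limma, so that it missed the threshold. Within wash batches it was 1.11, 1.86, 1.92 and 1.65. The adjusted p was 0.0178 without ChREBPβ KO replicate 4, where the difference was 1.76, and 0.0259 with array quality weights, where it was 1.61. Over 15 other settings the difference ran from 0.91 to 2.04, and in 13 of them it did not pass, with adjusted p up to 0.695 by limma. With single arrays left out it did not pass in 12 of 13 fits, with adjusted p up to 0.439.

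Otop1 probe A_55_P2078138, printed above and 1309 bases away, was at 5.42, 5.84 and 6.02 in ChREBPβ WT and at 5.65, 6.02 and 6.35 in ChREBPβ KO. These ranges overlapped, and the difference was 0.20 (SE 0.15, 95% confidence interval -0.11 to 0.52, adjusted p = 0.748 by limma). Both probes were dim, with median raw intensities between 41.0 and 157.5, but well above background on all 25 arrays. After subtraction of group means the Otop1 probes correlated at r = 0.60 over 25 arrays that share normalisation, against 0.94 for the pair of Ppargc1a probes and 0.92 for that of Ppargc1b.

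Dio2 was spread widely in the ChREBPβ line. Of the ChREBPβ WT arrays, 6 were between 6.66 and 6.92 and replicate 2 was at 9.47, and ChREBPβ KO was at 7.31 at the lowest, 7.88 at the median and 9.29 at the highest. All 6 ChREBPβ KO arrays were above those 6 WT arrays and below replicate 2. The Dio2 difference was 0.87 (SE 0.37, adjusted p = 0.496 by limma), and within wash batches it was 1.47, -1.84, 1.43 and 1.07, the negative value being the batch of replicate 2. Without ChREBPβ WT replicate 2 it was 1.27 (adjusted p = 0.238), and without that array and ChREBPβ KO replicate 4 it was 1.43 (adjusted p = 0.0667). Replicate 2 also held the lowest Kcnk3 (9.21) and Cox8b (11.00) levels of its group.

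Of the regulators, Prdm16, which promotes brown over muscle fate, was between 8.59 and 9.15 in ChREBPβ WT and between 9.01 and 9.36 in ChREBPβ KO, where 5 of 6 arrays were above all WT arrays. The difference was 0.34 (SE 0.09, unadjusted p = 0.00158, adjusted p = 0.311 by limma). Ppargc1b differed by -0.48 with the brighter probe (SE 0.13, adjusted p = 0.323) and by -0.49 with the dimmer probe (SE 0.19, adjusted p = 0.454). The brighter Ppargc1b probe was negative in each wash batch, from -0.70 to -0.19. Cox7a1 differed by 0.39 (SE 0.13, adjusted p = 0.399).

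Ucp1 differed by 0.58 (SE 0.24, adjusted p = 0.485 by limma), and most of the spread came from 1 array. ChREBPβ KO replicate 4 was at 6.94, with a raw intensity of 152.5, and the other 5 KO arrays were between 4.76 and 5.53. Without that array the Ucp1 difference was 0.28. The same array held the highest Ppargc1a of its group, at 9.59 and 7.72 with its 2 probes. Kcnk3 (0.26, 95% confidence interval -0.13 to 0.66), Cox8b (0.33, -0.27 to 0.93), Ppargc1a (-0.14, -0.46 to 0.18) and Ebf2 (0.03, -0.24 to 0.30) had intervals that included 0.

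**Figure D4:**
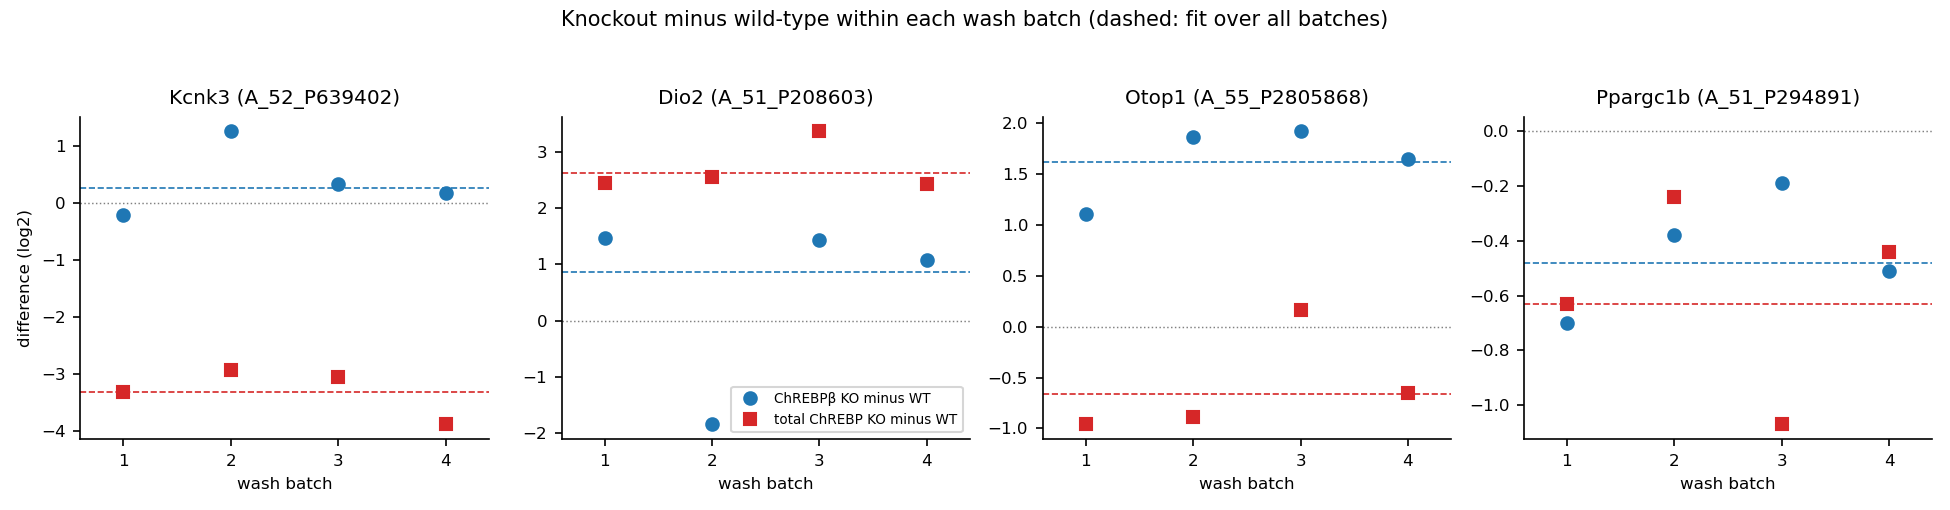
Knockout minus wild-type difference on the log2 scale (vertical axis) within each of the 4 wash batches (horizontal axis) for Kcnk3, Dio2, Otop1 and Ppargc1b; circles are the ChREBPβ line, squares the total ChREBP line and dashed lines the fit over all batches. Kcnk3 lay between -3.88 and -2.93 in every batch of the total ChREBP line, and Dio2 in the ChREBPβ line was negative in batch 2 (-1.84). Each group had 1 or 2 arrays in a batch, and 1 in batch 2.

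Whether the effect of losing both isoforms differed from that of losing ChREBPβ was tested as an interaction. Each effect was taken against the WT group of its own line, and deletion and line cannot be told apart in this test. Of the 10 genes, Kcnk3 and Otop1 passed, both as lower, where 3.21% of all probes passed and 1.92% did so as lower. The Kcnk3 effects of 0.26 and -3.31 differed by -3.58 (SE 0.28, adjusted p = 5.46e-08 by limma). For Otop1 probe A_55_P2805868 the effects were 1.62 in the ChREBPβ line and -0.66 (SE 0.29, adjusted p = 0.183) in the total ChREBP line, and they differed by -2.28 (SE 0.39, adjusted p = 0.000990). Within wash batches the Otop1 value ran from -2.75 to -1.76. The other Otop1 probe gave -0.31 (SE 0.22, adjusted p = 0.669), and by that probe Otop1 did not pass.

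In WT mice of the total ChREBP line the Otop1 probe A_55_P2805868 was at 5.44, 6.18 and 6.70 (lowest, median and highest), and in the KO mice it was at 5.11, 5.13, 5.31, 5.41 and 6.51. The last value was that of replicate 7, without which this probe differed by -0.94 from total ChREBP WT (adjusted p = 0.0483 by limma). In the other 11 of 12 fits with a single array left out it did not pass, with adjusted p up to 0.37. Probe A_55_P2078138 differed by -0.11 in this comparison (SE 0.16, adjusted p = 0.81). With single arrays left out that probe ran from -0.22 to -0.01 and did not pass, with adjusted p from 0.423.

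The Dio2 effects of 0.87 and 2.62 differed by 1.75 (SE 0.54, adjusted p = 0.0870 by limma), so that a larger effect in the total ChREBP line was not established. Without ChREBPβ KO replicate 2, which at 9.29 was the highest of its group, the difference of the Dio2 effects was 2.07 (adjusted p = 0.0192). Over all fits with a single array left out it ran from 1.40 to 2.07. It did not pass in 24 of these 25 fits, with adjusted p up to 0.187. For Cox7a1 the effects differed by -0.64 (SE 0.19, adjusted p = 0.0767), and this passed without ChREBPβ WT replicate 2 (-0.71, adjusted p = 0.0326) or replicate 3 (-0.72, adjusted p = 0.0214). In the other 23 of 25 fits it did not pass, with adjusted p up to 0.171. The Ppargc1b effects, -0.48 and -0.63 with the brighter probe, differed by -0.15 (95% confidence interval -0.56 to 0.26).

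The WT groups of the 2 lines were not alike. In total ChREBP WT, 5 of the 10 genes were higher than in ChREBPβ WT and none was lower: Kcnk3, Ppargc1a, Ppargc1b, Cox8b and Cox7a1. Of all probes, 22.0% passed in this comparison and 14.7% did so as higher. It shares ChREBPβ WT and total ChREBP WT with the knockout comparisons above. The line, its breeding and the tissue carried over in dissection cannot be told apart here.

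Ppargc1a, the cold-inducible coactivator of mitochondrial biogenesis, was at 8.38, 8.88 and 9.39 (lowest, median and highest) in ChREBPβ WT and at 9.83, 9.96 and 10.30 in total ChREBP WT. All 7 arrays of the latter were above all 7 of the former, as for 5.06% of all probes. The Ppargc1a difference was 1.13 (SE 0.15, 2.19-fold, adjusted p = 3.04e-05 by limma), and 1.08 (SE 0.15, adjusted p = 4.76e-05) with the second probe, whose sequence is printed above. Total ChREBP KO, at 9.79 to 10.18, overlapped with total ChREBP WT, and ChREBPβ KO, at 8.10 to 9.59, overlapped with ChREBPβ WT. The order of the Ppargc1a levels thus followed the line, and the neighbours within a line did not differ beyond their spread.

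Kcnk3 was at 9.21, 10.20 and 10.50 in ChREBPβ WT, below all total ChREBP WT arrays, with a difference of 1.17 (SE 0.18, adjusted p = 0.000160 by limma). The Kcnk3 groups were ordered total ChREBP WT, ChREBPβ KO, ChREBPβ WT and total ChREBP KO, and the middle groups did not differ beyond their spread. Cox8b was at 11.00, 11.81 and 12.43 in ChREBPβ WT, and all but 1 of the total ChREBP WT arrays were above that, with a difference of 1.31 (SE 0.28, adjusted p = 0.00178). Ppargc1b was higher by 0.57 (SE 0.13, adjusted p = 0.00304) and Cox7a1 by 0.46 (SE 0.12, adjusted p = 0.0107), with overlapping ranges.

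Genes of skeletal muscle, which shares Cox7a1 and Cox8b with brown fat, moved the same way: 5 of 9 were higher in total ChREBP WT, where the mean of the list was 6.81 to 7.21 against 6.48 to 7.12 in ChREBPβ WT, and their part in the result was not tested.

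Of 5 sympathetic nerve genes 3 were also higher in total ChREBP WT, with a median difference of 0.74 over the list, and of 6 kidney genes 4 were lower, with a median of -1.25. The part of either list was not tested. Liver genes moved with this comparison in the opposite direction to the members: 8 of 9 were lower in total ChREBP WT, with a median difference of -4.72 over the list. With the mean of the liver list as a covariate, Kcnk3 (1.05, adjusted p = 0.0434 by limma) and Ppargc1a (1.32, adjusted p = 0.00393) passed. Cox8b (1.26, adjusted p = 0.107), Ppargc1b (0.45, adjusted p = 0.219) and Cox7a1 (0.37, adjusted p = 0.313) did not, leaving 2 of the 5 genes. The covariate and the line were nearly the same split of these arrays. Cox7a1 also did not pass without the 5 arrays with the highest epididymis and vas deferens mean (0.37, adjusted p = 0.100).

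Dio2 was higher by 0.90 in total ChREBP WT and missed the threshold (SE 0.35, adjusted p = 0.0724 by limma). Without ChREBPβ WT replicate 2 the Dio2 difference was 1.28 (adjusted p = 0.00215), so that leaving out 1 array changed this call. Other settings also changed it: Dio2 kept its side of the threshold in 11 of 14, with adjusted p from 0.00139 to 0.181 by limma. For Otop1, probe A_55_P2078138 was higher by 0.55 (SE 0.15, adjusted p = 0.00965) and probe A_55_P2805868 by 0.48 (SE 0.26, adjusted p = 0.202). With the liver list as a covariate these Otop1 values turned to -0.07 and -0.20, and neither passed. Ucp1 (0.18), Prdm16 (-0.02) and Ebf2 (0.07) had intervals that included 0.

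The rest of the thermogenic programme was read from 81 other genes, grouped as effectors, regulators, beige markers, brown markers, genes of heat production without Ucp1, signals and receptors, and cytochrome c oxidase subunits. In ChREBPβ KO none of the 81 passed, with a median difference of -0.01. In total ChREBP KO 14 passed, 9 higher and 5 lower, which was 17.3% of the list, with a median of -0.01. Of all probes 8.79% passed in this comparison, 5.35% as higher and 3.44% as lower.

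Of the 15 signals and receptors, 2 were higher and 1 was lower in total ChREBP KO. Fgf21, a fasting and cold hormone and a known ChREBP target, fell by 3.11 (SE 0.37, adjusted p = 5.6e-06 by limma), and Adrb3, the β-adrenergic receptor of mouse adipocytes, rose by 1.25 (SE 0.16, adjusted p = 1.1e-05). Of the 11 beige markers, the fatty acid transporter gene Slc27a1 (-1.03) and P2rx5 (-1.78), a purinergic receptor used as a brown and beige surface marker, were lower, and Klhl13 was higher (0.46). Of the 4 brown markers measured, Mpzl2 was lower (-1.22). Among effectors, Cpt2, the mitochondrial carnitine palmitoyltransferase, rose by 0.46, and among regulators Tle3, a corepressor that opposes Prdm16, rose by 0.52.

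None of 7 genes of heat production without Ucp1 passed in total ChREBP KO, and 2 of 13 cytochrome c oxidase subunits did. Cox7a2, the ubiquitous counterpart of Cox7a1, rose by 0.17 (adjusted p = 0.0341 by limma), and Cox8a, that of Cox8b, differed by 0.13 (adjusted p = 0.219). With the liver list as a covariate 7 of the 81 genes passed, 6 of them among the 14. Without the 5 arrays with the highest epididymis and vas deferens mean 8 passed, 7 of them among the 14. Fgf21, Adrb3, P2rx5, Slc27a1 and Cpt2 passed both ways. Sympathetic nerve genes moved with these changes: Th, the rate-limiting enzyme of noradrenaline synthesis, fell by 0.87 and the noradrenaline transporter gene Slc6a2 by 0.64, 2 of 5 genes of that list, and their part in the results was not tested.

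The effects of the lines differed for 5 of the 81 genes, or 6.17%, where 3.21% of all probes passed. Adrb3 (1.43), Ppara (1.58), the nuclear receptor of fatty acid oxidation, and Cpt2 (0.48) had a higher effect in the total ChREBP line, and Fgf21 (-3.27) and the brown marker Ebf3 (-0.67) a lower effect. Between the WT groups 35 of 81 passed, 30 of them higher in total ChREBP WT, which was 43.2% of the list, with a median of 0.17, where 22.0% of all probes passed and 14.7% did so as higher. The higher genes included Cidea (2.02), a lipid droplet protein of brown fat, Fgf21 (1.63), Slc27a1 (1.46), P2rx5 (0.96), Plin5 (0.87) and 9 of 13 cytochrome c oxidase subunits, with Cox7a2 at 0.19 and Cox8a at 0.18. Slc27a2 (-4.47), Dio1 (-1.38) and Ppara (-1.25), which the liver also expresses strongly, were lower. With the liver list as a covariate 14 passed, 12 of them among the 35, and Slc27a2, Dio1 and Ppara did not.

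**Figure D5:**
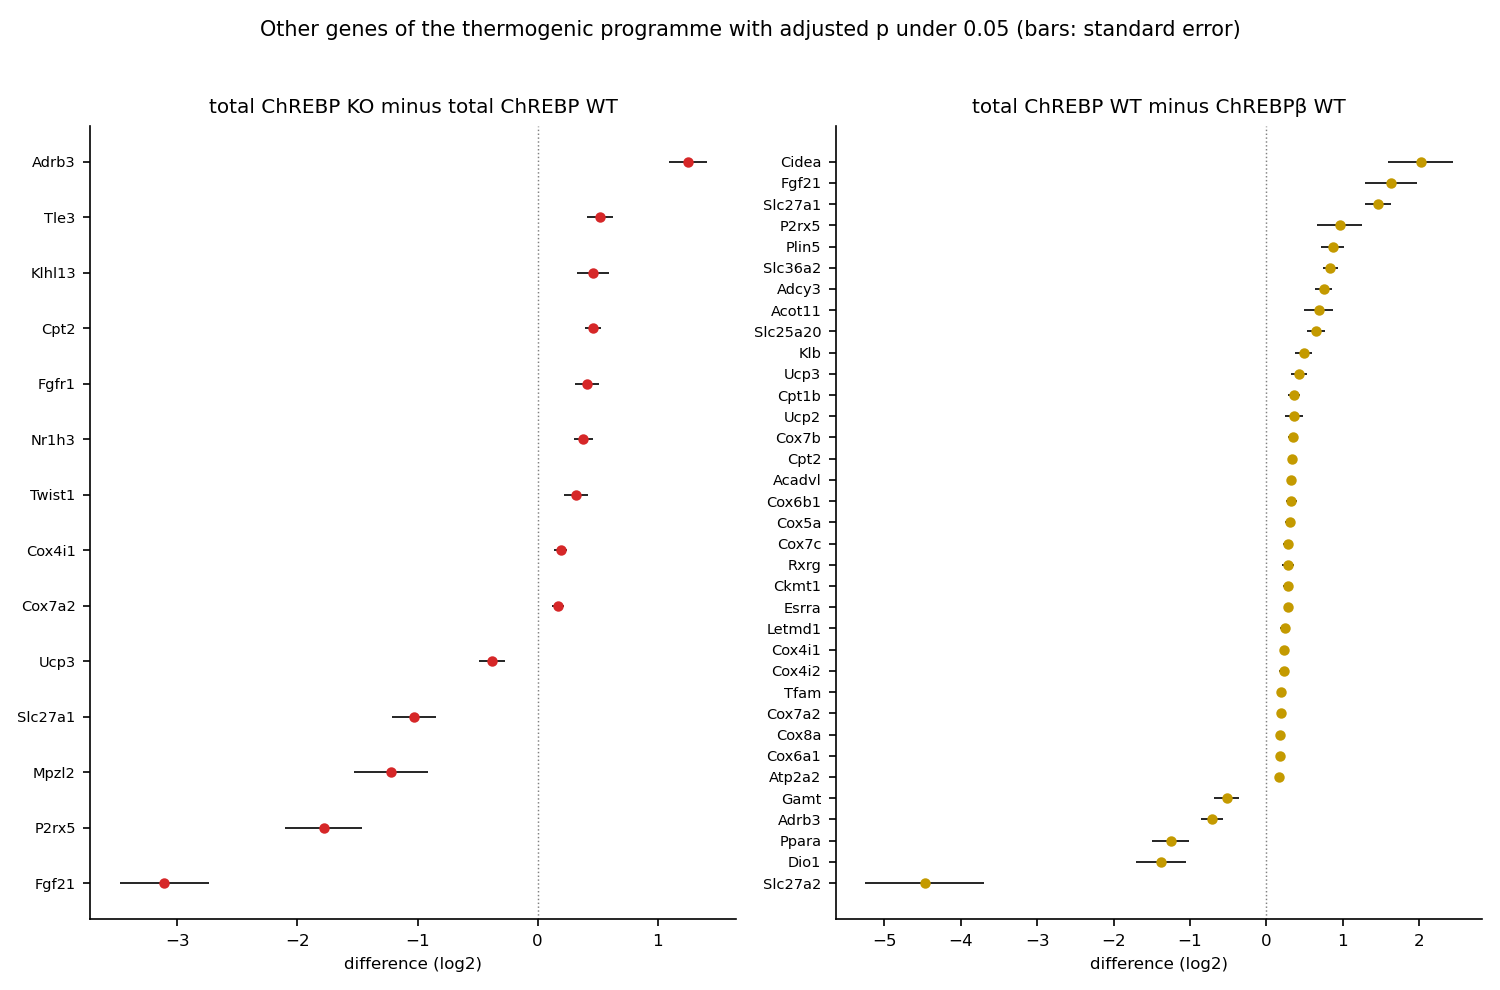
Difference on the log2 scale (horizontal axis) of the other thermogenic genes that passed an adjusted p of 0.05 (vertical axis, by gene), for total ChREBP KO against total ChREBP WT (left, 14 genes) and total ChREBP WT against ChREBPβ WT (right, 35 genes); bars are standard errors. Fgf21 (-3.11) and Adrb3 (1.25) are the extremes on the left, and 30 of the 35 genes on the right lie above 0.

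The members did not vary as 1 block from array to array. After subtraction of the group means, the 45 pairs of the 10 genes had correlations over the 25 arrays from -0.39 to 0.69 with a median of 0.10, and these arrays share normalisation and the tissues carried over. The highest pairs were Ucp1 with Ppargc1a (r = 0.69) and Kcnk3 with Cox8b (r = 0.57). ChREBPβ KO replicate 4 held the highest Ucp1 (6.94) and Ppargc1a (9.59) of its group, and Ucp1 lay near the detection limit on most arrays. The part of that array in the first of these correlations was not tested. The nearest genes were picked from the named genes of the whole array, few of which are members. They therefore do not bear on how the members varied together. The genes most like each member by this measure were not members. They were Fxyd1 for Kcnk3 (r = 0.79), Tdrkh for Dio2 (r = 0.81), Rasl12 for Otop1 (r = 0.85), Tef for Ppargc1b (r = 0.78), Pde1a for Ppargc1a (r = 0.76) and Tmem9 for Ucp1 (r = 0.74). Ebf2 was nearest to Adamts10 (r = 0.90) and to the adipocyte lipid droplet gene Plin4 (r = 0.89), Cox8b to Fam162a (r = 0.82) and, among its nearest 3, to Hadhb of mitochondrial fatty acid oxidation (r = 0.78), Cox7a1 to Cage1 (r = 0.79) and Prdm16 to Gltscr1l (r = 0.79).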

How the data were processed

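RNA of pgWAT from 25 mice was hybridised to SurePrint G3 mouse arrays, 1 array per mouse. Per the file headers, the authors' Feature Extraction files (version 10.10.1.1) held the median intensity of each spot, without background correction, beside its local background. The authors deposited log2 values of 40561 probes, which per the methods had been filtered on detection, quantile normalised and reduced to the median of replicated probes. The normalisation may have included arrays not analysed here. The lowest correlation of a log2 column with its array's log2 intensity was 0.9998, and 23 cells were empty. Median raw intensity was 84 to 127 per array over a local background of 15 to 22, 73.0% to 77.9% of spots were well above background, and the number of arrays limits the precision.

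The log2 values were fitted with limma 3.58.1 (R 4.3.3) with a mean for each of 4 groups and a fixed effect for each wash batch (18 residual degrees of freedom), with Benjamini-Hochberg adjustment over all probes and a threshold of 0.05. Differences of uncorrected intensities understate changes of dim probes. The script was tested on simulated data. P-values measure the spread between mice. Members, lists and tests were chosen with earlier results of these data known. All members were named, each by its brightest probe first. Brightness was the mean over all arrays, KO groups included. Of the other lists, the 8 largest called genes per comparison, Cox7a2 and Cox8a were to be named, Th and Slc6a2 were named after their values were seen, and likeness took the 3 highest correlations. The lists of endothelial, progenitor, mesothelial, macrophage, lymphocyte, smooth muscle, kidney and skeletal muscle genes passed in ChREBPβ KO for 0 genes and in total ChREBP KO for 0 to 2 genes each. Alternatives were other normalisations and background corrections, filters, batch, slide and replicate blocks, weights and single arrays left out. A covariate for liver genes and 2 sets of arrays left out were added after seeing the data.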

Additional observations from a re-analysis of the deposited data

Results flagged for a closer look

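Of 52 sets of arrays, each 1 probe in 1 group, 5 held an array that stood apart from the others by Dixon's ratio, and chance gives about 1 in 20. Ucp1 was 6.94 in ChREBPβ KO replicate 4, where the other 5 arrays were between 4.76 and 5.53. Dio2 was 9.47 in ChREBPβ WT replicate 2, where the other 6 were between 6.66 and 6.92. The Otop1 probe A_55_P2805868 was 6.51 in total ChREBP KO replicate 7, where the other 4 were between 5.11 and 5.41. The dimmer Ppargc1b probe, A_65_P02810, was 7.75 in ChREBPβ KO replicate 6, the lowest of its group, and Ebf2 was 10.03 in total ChREBP WT replicate 2, the array with the highest epididymis and vas deferens mean.

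The knockout effects in the 2 lines differed, by the interaction test, for Kcnk3 by -3.58 and for Otop1 probe A_55_P2805868 by -2.28. The second Otop1 probe did not pass this test, at -0.31 (adjusted p = 0.669 by limma).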

How the results depend on the processing

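Of 1555 recomputed differences of single probes, 1453 kept direction and side of the threshold, 18 no longer passed, 16 newly passed and 68 turned direction. With array quality weights 1 of the 10 genes passed for ChREBPβ KO, 4 for total ChREBP KO and 4 for the difference between the effects, and with the liver covariate 2 passed between the WT groups. With 2 arrays of the ChREBPβ line left out, 1 passed for ChREBPβ KO. With single arrays left out the counts were 0 to 1 for ChREBPβ KO (1, Otop1, without ChREBPβ KO replicate 4), 3 to 4 for total ChREBP KO, 2 to 3 for the difference between the effects and 5 to 6 between the WT groups. Replicate numbers did not pair the mice (correlations of deviations -0.432 to 0.386), and the replicate block gave 0, 3, 2 and 5 genes and so changed no count.

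Over all probes, array quality weights gave 49 calls for ChREBPβ KO, 5434 for total ChREBP KO and 2176 for the difference between the effects, which had 710 with the replicate block. For ChREBPβ KO 18 passed with the 2 arrays left out, and 2 each with normexp correction, with renormalised scanner intensities and with a trended robust variance. Without the 5 arrays high in epididymis genes 2310 passed for total ChREBP KO, and with the liver covariate 2977 between the WT groups. The cause was not tested.

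Turned directions were of small values, apart from the Otop1 probes A_55_P2805868 and A_55_P2078138 between the WT groups, at 0.48 and 0.55 in the main fit. All but that of Otop1 A_55_P2078138 were of values that had not passed. With the liver covariate Otop1 A_55_P2805868 and A_55_P2078138 were -0.20 and -0.07 between the WT groups, Ebf2 was -0.35 there, -0.08 for ChREBPβ KO and -0.18 for total ChREBP KO, Prdm16 was 0.00 for total ChREBP KO, and the Ppargc1a probes A_51_P279038 and A_55_P2745394 were 0.01 and 0.02 for the difference between the effects. With array quality weights these Ppargc1a values were 0.10 and 0.09, Ppargc1b A_65_P02810 was 0.04, Ebf2 -0.08 (total ChREBP KO) and Prdm16 0.03 (WT groups). With the replicate block Ppargc1b A_65_P02810 was 0.03 and Prdm16 0.03. Without the wash batch term both Ppargc1a probes were 0.03 and Ebf2 0.00, with normexp correction Ebf2 was 0.00, with only the groups compared it was -0.02, and with the processed signal Ppargc1a A_55_P2745394 was 0.02. Without the epididymis arrays Ebf2 was -0.11 and Prdm16 0.04, and without the 2 arrays of the ChREBPβ line Ebf2 and Prdm16 were 0.00 and the Ppargc1a probes 0.06 and 0.08. With single arrays left out Ebf2 ran from -0.03 to 0.12 (ChREBPβ KO), -0.10 to 0.06 (total ChREBP KO) and -0.13 to 0.03 (difference between the effects), both Ppargc1a probes from -0.10 to 0.13, Ppargc1b A_65_P02810 from -0.20 to 0.07 and Prdm16 (WT groups) from -0.07 to 0.04. Signal close to background limits Ucp1 and both Otop1 probes, and 5 to 7 arrays a group limit small differences.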

Other observations

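The other thermogenic genes that changed in total ChREBP KO can be set beside their values in ChREBPβ KO, where none passed. Fgf21 differed by 0.16 (SE 0.36, adjusted p = 0.945 by limma), Adrb3 by -0.17 (SE 0.15), Slc27a1 by -0.36 (SE 0.17), P2rx5 by -0.44 (SE 0.30), Mpzl2 by -0.64 (SE 0.29), Klhl13 by 0.35 (SE 0.13), Tle3 by 0.19 (SE 0.11) and Cpt2 by -0.03 (SE 0.07). Cidea, the lipid droplet gene that separated the WT groups, differed by -1.43 (SE 0.46) in total ChREBP KO and missed the threshold (adjusted p = 0.0616).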
